A study of Homo sapiens with 5 samples.

Results

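The 10 genes described here encode small nuclear RNAs of the spliceosomes and 2 related nuclear RNAs. RNU11, RNU12, RNU4ATAC and RNU6ATAC encode the U11, U12, U4atac and U6atac RNAs of the minor spliceosome. RNU4-1, RNU4-2, RNU5A-1 and RNU5B-1 encode U4 and U5 RNAs, RNU7-1 encodes the U7 RNA of histone mRNA processing, and SNORD118 encodes the U8 small nucleolar RNA. They are 10 of 58957 genes on the main chromosomes of the RefSeq table for GRCh38.p14. The genes were chosen by peak presence: the set was proposed with the peak lists in view, and a gene was assigned every peak lying within 1 kb of either of its ends. The counts of peaks at these genes are therefore descriptions, with no test.

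The data were 5 lists of ChIP-seq peaks from MIA PaCa-2 cells, a long-established line from a human pancreatic carcinoma. ChIP-seq sequences the DNA that is crosslinked to a protein and recovered with an antibody against it. The Mediator subunits MED17 and MED30 were each mapped once in parental cells fixed with 2 mM DSG for 20 min and then 1% formaldehyde for 10 min. The transcription factor MYC was mapped once in parental cells, once in cells with a Tet-On hairpin against MED30 without doxycycline, and once in the same line after 3 days of doxycycline, all with formaldehyde alone. Parental cells thus carried neither the hairpin nor the drug, the uninduced cells carried the hairpin only, and whether the hairpin line is 1 clone is not stated in the sources. With 1 library a group, the differences below are between libraries and carry no test. Mediator and MYC also differ in fixation, and that difference cannot be told apart from the protein.

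The lists held 13172 MED17 peaks, 12040 MED30 peaks, 14331 parental MYC peaks, 7158 MYC peaks in uninduced cells and 4621 in induced cells. The last 2 lists had lower pileups, read here as lower depth, which was not measured directly. Their median summit pileups were 8 and 6 fragments, against 22 in the parental MYC list. The lowest local background pileup of their peaks, recovered from the deposited values, was 0.121 and 0.0725 times that of the parental MYC library. The authors' fold enrichment, the height of a peak's summit over its local background, had a median of 4.98 in the MED17 list, 4.82 in that of MED30 and 4.48 in that of parental MYC. Strength is given below as that fold and as its percentile within the list. The percentile is the percentage of the list's peaks with an equal or lower fold.

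Most spliceosomal small nuclear RNAs are made by RNA polymerase II from short promoters that lack the usual core of an mRNA gene. A proximal sequence element is bound by the SNAPc complex, and a distal element is often bound by the octamer factor POU2F1 and by ZNF143. U6 and U6atac RNAs are made instead by RNA polymerase III from promoters that add a TATA box to the same proximal element. Mediator links transcription factors to RNA polymerase II, and MYC binds E-box sequences near the starts of many active genes.

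Mediator summits lay within 100 bp of the gene at 8 of 10 genes for MED17 and at all 9 genes with MED30. Promoter sequence of neighbouring genes was at hand near RNU12, RNU4-2, RNU7-1 and SNORD118, and 2 windows are shown. The windows are RefSeq promoter sequence of GRCh38.p14, shown as the 250 bases before the start of the neighbouring gene, on the plus strand. The first is chr12:120291939-120292188, before SIRT4, and it lies just above the upper end of RNU4-2. Its capitals mark a match to the proximal element core CACCNTNA on the minus strand and the octamer ATGCAAAT on the plus strand. The second is chr12:6943772-6944021, before C12orf57, and its capitals mark the whole of RNU7-1.
SIRT4 window beside RNU4-2: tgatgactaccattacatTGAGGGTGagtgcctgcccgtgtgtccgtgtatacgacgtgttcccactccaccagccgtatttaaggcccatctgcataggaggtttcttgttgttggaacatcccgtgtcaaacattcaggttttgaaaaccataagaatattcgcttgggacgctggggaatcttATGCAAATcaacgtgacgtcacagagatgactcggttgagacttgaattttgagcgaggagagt
C12orf57 window holding RNU7-1: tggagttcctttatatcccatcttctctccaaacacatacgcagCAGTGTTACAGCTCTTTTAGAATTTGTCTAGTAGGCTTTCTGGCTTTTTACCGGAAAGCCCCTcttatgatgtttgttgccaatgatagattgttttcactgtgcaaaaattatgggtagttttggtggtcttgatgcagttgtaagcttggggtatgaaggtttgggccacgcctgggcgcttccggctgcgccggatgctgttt

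In the SIRT4 window the proximal core lay 54 to 61 bases above the upper end of RNU4-2, and the octamer lay 222 to 229 bases above it. Over 35116 RefSeq promoter windows of 300 bases, searched on both strands, 10.2% held the proximal core, 1.77% held the octamer and 0.177% held both. The MED17 summit at RNU4-2 fell on base 1 of this window. The C12orf57 window held a minus-strand TATAA at bases 11 to 15, a motif found in 20.4% of windows, and RNU7-1 occupied bases 45 to 107. The MED30 summit fell on base 55, inside RNU7-1. The E-box CACGTG, present in 7.26% of windows, was in neither of these 2 windows nor in the POLDIP3 window near RNU12. CACGCG, present in 11.4%, and the ZNF143 core CCCAGCAT, present in 1.73%, were also in none of the 3. The POLDIP3 window held none of the 6 motifs searched, nor did a window before LOC124905127, also near RNU12. A window before LOC105371520, near SNORD118, held a plus-strand TATAA at bases 128 to 132 and no other motif searched. A match is a run of letters and was not tested as a binding site.

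MED17 peaks were near all 10 genes and MED30 peaks near 9 of 10. Among all genes 22.1% had MED17 and 19.4% had MED30 within the same distance, and among protein-coding genes the shares were 48.2% and 42%. Peaks of both subunits were near 9 of 10 genes, against 17.9% of all genes and 39.3% of protein-coding genes. RNU6ATAC was the exception, and its nearest MED30 peak was 161 kb away. A parental MYC peak was near 6 of 10 genes, against 18% of all genes and 39.3% of protein-coding genes. The 4 genes with Mediator and no parental MYC peak were RNU11, RNU5A-1, RNU5B-1 and SNORD118, and such genes made up 6.57% of all genes and 13.4% of protein-coding genes. Both counts depended on the distance: with a limit of 500 bp, 3 genes had MYC and 7 had Mediator without it, and with 250 bp the counts were 1 and 9. With only the upper 50% of each list by fold they were also 1 and 9. In the hairpin line none of the 10 genes had a MYC peak, either without doxycycline, where 3.95% of all genes and 8.61% of protein-coding genes had one, or with it, where the shares were 2.22% and 4.73%. These counts were used in choosing the genes, and nothing is read from their distance to the background.

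**Figure D1:**
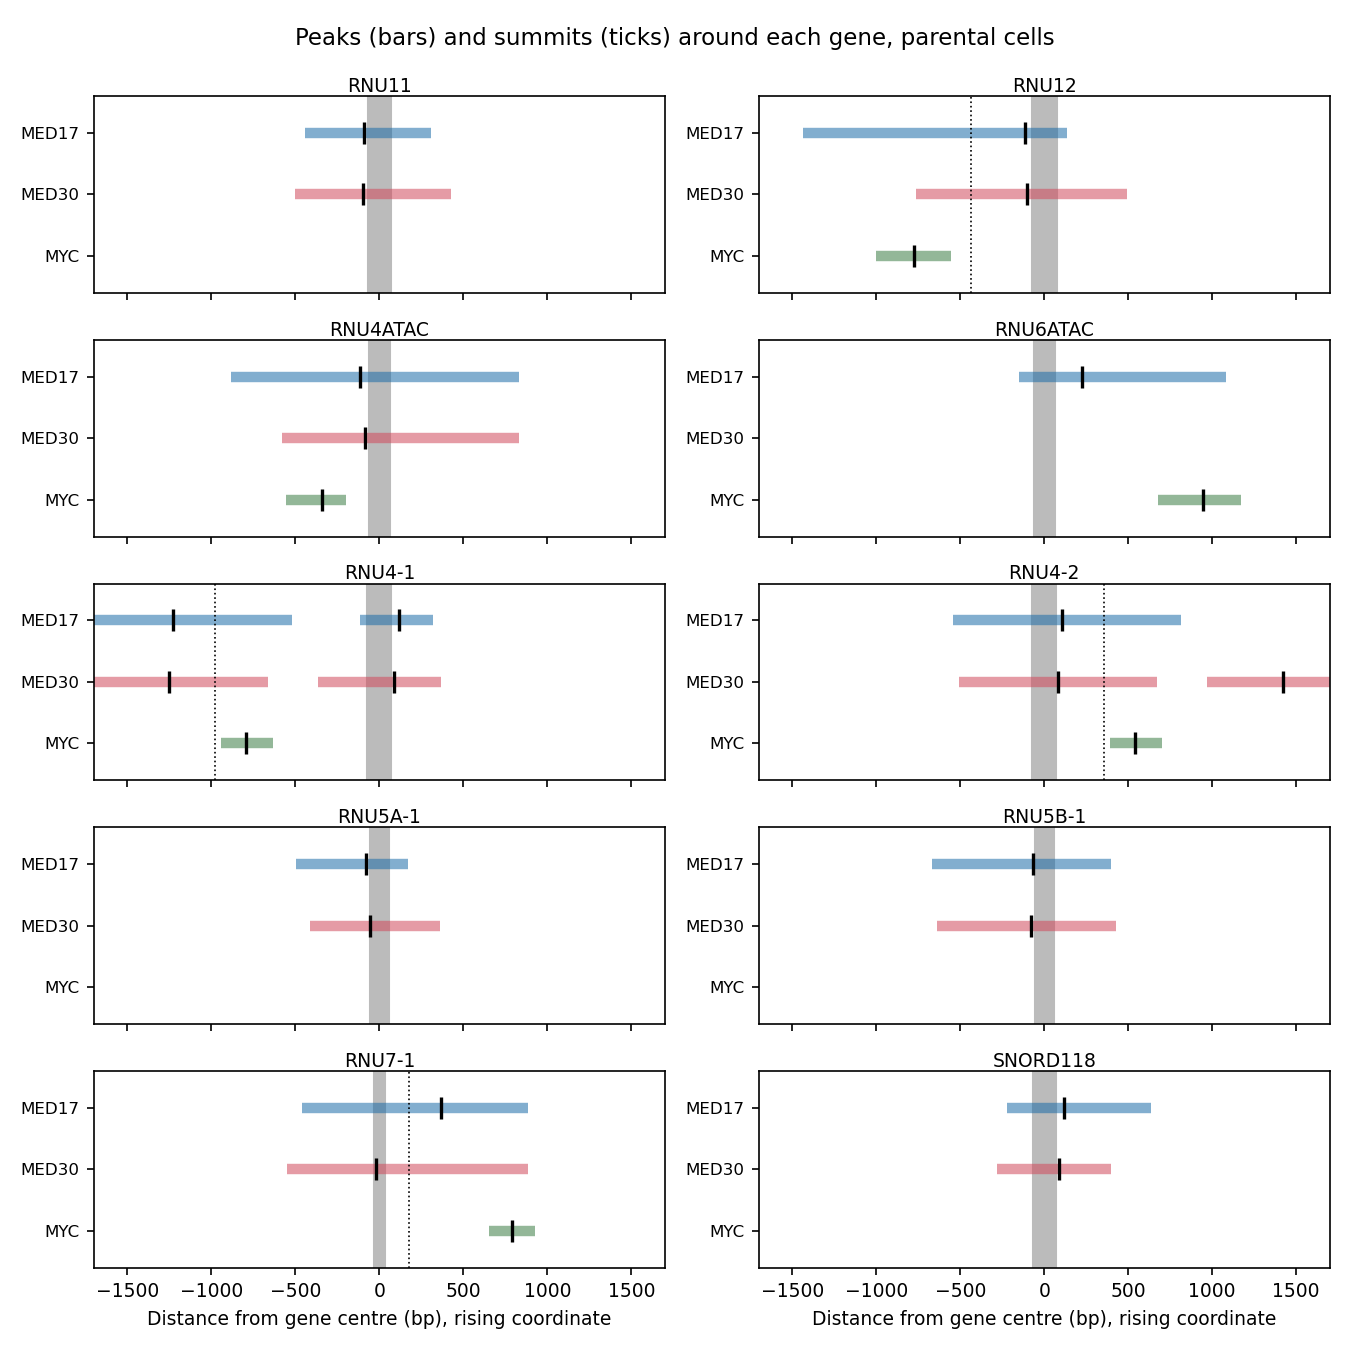
Peaks (coloured bars) and their summits (black ticks) for MED17, MED30 and MYC in parental cells around each of the 10 genes, with the distance from the gene's centre in bp on the horizontal axis, in the direction of rising coordinate. The grey band is the gene and the dotted line the start of the nearest protein-coding gene where it lies in the panel. MED30 summits lie within 31 bp of the gene in all 9 panels that have one nearest that gene, and no MYC peak reaches the grey band.

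Among the minor spliceosome genes, RNU11 had the highest MED17 fold of the 10. U11 RNA pairs with the 5′ splice site of minor introns. RNU11 spans chr1:28648600-28648734 (hg38) and overlaps the non-coding gene TAF12-DT. It lies 331 bp from the nearer edge of the TAF12 span, for which the gene positions give no strand. Its MED17 peak had a fold of 11.3 (percentile 99.3) and its MED30 peak a fold of 15.2 (percentile 99.5). The summits lay 24 and 31 bp below the lower end of the gene, at pileups of 97 and 214 fragments. No parental MYC peak was within 1 kb, and the nearest was 5.10 kb away.

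The TAF12 start listed in the RefSeq promoter sequences, 5533 bp from RNU11 and so farther than the nearer edge of TAF12, showed the opposite balance. There MED17 had a fold of 5.12 (percentile 54.1) and MED30 a fold of 6.44 (percentile 85.0). MYC had a fold of 8.12 at the TAF12 start (percentile 92.8) in parental cells. In the hairpin line the TAF12 start had a MYC peak with doxycycline (fold 5.82) and none without. RNU11 was thus strong in both Mediator lists and absent from the MYC lists, while that TAF12 start had its highest percentile in MYC.

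U4atac RNA base-pairs with U6atac RNA in the minor tri-snRNP. RNU4ATAC, at chr2:121530880-121531009, lies inside CLASP1 and CLASP1-AS1, 118453 bp from the CLASP1 start. It had the highest MED30 fold of the 10, 15.5 (percentile 99.6), with the summit 20 bp below its lower end. Its MED17 fold was 9.02 (percentile 98.0), with the summit 52 bp below. The parental MYC peak there was the weakest of the set, with a fold of 3.46 (percentile 14.9), a summit 277 bp below the gene and a nearest edge 135 bp from it. The CLASP1 start itself had lower Mediator folds, 4.66 for MED17 and 6.86 for MED30.

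U12 RNA pairs with the branch site of minor introns. RNU12, at chr22:42615244-42615393, lies 361 bp from the start of POLDIP3, so both genes share the peaks. MED17 had a fold of 5.70 (percentile 69.3) and MED30 a fold of 10.3 (percentile 98.4), with summits 40 and 27 bp below the lower end of RNU12. The parental MYC peak, with a fold of 5.48 (percentile 72.5), was the strongest near any of the 10 genes. Its summit was 700 bp from RNU12 and 339 bp from the POLDIP3 start. The Mediator summits were thus beside RNU12, and the MYC summit was on the far side of the POLDIP3 start.

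U6atac RNA replaces U6 in the catalytic core of the minor spliceosome, and RNU6ATAC is the only one of the 10 genes known to be transcribed by RNA polymerase III. It lies at chr9:134164439-134164564 inside the uncharacterised locus LOC124902297, 4471 bp from the end of WDR5. Its MED17 fold was 6.62 (percentile 85.6), at a pileup of 31 fragments, the lowest of the 10. The summit was 163 bp above the upper end of the gene. There was no MED30 peak, and the MYC peak had a fold of 4.26 (percentile 43.2) with its summit 883 bp above the gene. WDR5, whose product is a chromatin adaptor protein, likewise had a MED17 peak at its start (fold 6.59) and none of MED30.

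The U4 genes had the lowest MED30 folds of the 9. U4 RNA holds U6 RNA inactive until the spliceosome is activated. RNU4-1, at chr12:120293093-120293237, and RNU4-2, at chr12:120291759-120291903, are 1189 bp apart and both touch the span of SIRT4. Their windows share peaks, and each value here is from the peak whose summit is nearest the gene. RNU4-1 had a MED17 fold of 5.78 (percentile 71.3) and a MED30 fold of 7.68 (percentile 93.8). RNU4-2 had a MED17 fold of 6.44 (percentile 83.2) and a MED30 fold of 8.05 (percentile 95.1). Their pileups were not low, at 137 fragments of MED30 for RNU4-1 and 145 for RNU4-2 against a median of 137 over the 9 genes.

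All 4 Mediator summits at the U4 genes lay just above the upper end, 43 and 18 bp for MED17 and MED30 at RNU4-1 and 36 and 12 bp at RNU4-2. The 1 parental MYC peak between the genes had a fold of 4.41 (percentile 47.8). Its edge was 562 bp from RNU4-1, and its summit was 466 bp from RNU4-2 and 180 bp from the SIRT4 start. It is the peak counted for both U4 genes, so the 6 genes with MYC rest on 5 distinct peaks. A second SIRT4 start, 9084 bp from RNU4-1, had a MED30 fold of only 3.52 (percentile 9.39).

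U5 RNA aligns the exons for ligation in both spliceosomes. RNU5A-1, at chr15:65296051-65296167, and RNU5B-1, at chr15:65304677-65304793, are 8509 bp apart, with PARP16 as the nearest protein-coding gene. RNU5A-1 had a MED17 fold of 8.87 (percentile 97.8) and a MED30 fold of 13.4 (percentile 99.3), with the MED30 summit 3 bp inside its lower end. RNU5B-1 had a MED17 fold of 7.67 (percentile 94.1) and a MED30 fold of 14.4 (percentile 99.4), with summits 9 and 18 bp below its lower end. The pair therefore ranked high in both Mediator lists. The nearest parental MYC peaks were 8.93 kb from RNU5A-1 and 17.6 kb from RNU5B-1. At the PARP16 start the folds were 4.06 for MED17, 3.77 for MED30 and 5.18 for MYC.

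U7 RNA guides the cleavage of histone pre-mRNA. RNU7-1, at chr12:6943816-6943878, is the shortest of the 10, with 63 bp, and lies within the span of C12orf57, 144 bp from its start. The 2 Mediator subunits differed most here. MED17 had a fold of 5.18 (percentile 55.9) with its summit 334 bp above the gene, beyond the C12orf57 start. MED30 had a fold of 9.72 (percentile 98.0) with its summit inside RNU7-1. The parental MYC peak had a fold of 3.63 (percentile 20.5), and its summit was 757 bp above the gene.

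SNORD118 makes U8 RNA, which acts in ribosomal RNA processing but has a promoter of the small nuclear RNA type. It lies at chr17:8173452-8173588 in TMEM107, and the TMEM107 start is 2792 bp away. Its MED17 fold was 7.27 (percentile 91.7) and its MED30 fold 13.7 (percentile 99.3), with summits 52 and 22 bp above the upper end. No parental MYC peak was closer than 10.5 kb. The TMEM107 start had a MED17 peak with a fold of 3.35 (percentile 5.86) and no peak in the other 4 lists.

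**Figure D2:**
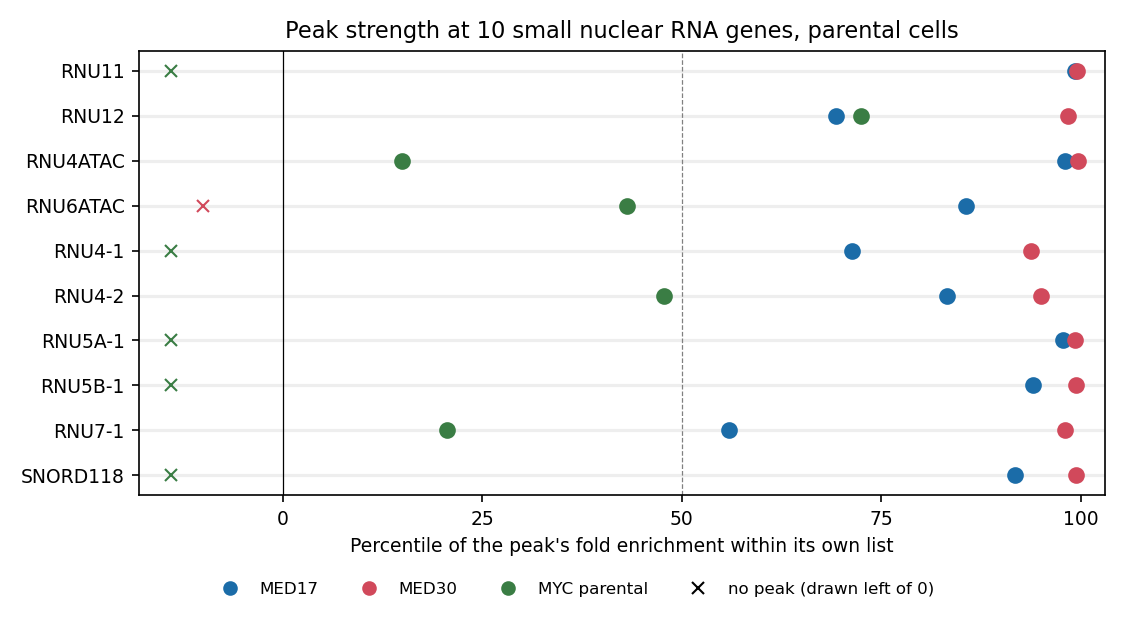
Percentile of fold enrichment, within its own list, of the peak whose summit is nearest each gene, for MED17, MED30 and parental MYC. Crosses left of 0 mark a gene with no such peak, which includes RNU4-1 for MYC because the peak it shares is nearer RNU4-2. All 9 MED30 points lie at 93.8 or above, MED17 points spread from 55.9 to 99.3, and 4 of 5 MYC points lie below 50.

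MED30 peaks at these genes were strong throughout, while MED17 peaks ranged from the middle of the list to its top. The MED30 folds ran from 7.68 to 15.5, with a median of 13.4, and the MED17 folds from 5.18 to 11.3, with a median of 6.95. Peaks in the upper 10% of the list by fold, a limit chosen after the values were seen, were near 9 of 10 genes for MED30 and near 5 of 10 for MED17. Of the background, 2.12% of all genes and 4.14% of protein-coding genes had such a MED30 peak, and 2.2% and 4.78% had such a MED17 peak. RNU4ATAC ranked 50 of 12040 in MED30, RNU11 ranked 56 and RNU5B-1 ranked 69. RNU11 ranked 93 of 13172 in MED17 and RNU4ATAC ranked 262.

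The percentile in MED30 exceeded that in MED17 at each of the 9 genes with both. The difference ran from 0.242 to 42.1 percentile points, with a median of 7.65. Of the 7796 protein-coding genes with both peaks, 3850 (49.4%) had the higher percentile in MED30, and the median difference was -0.427. All 9 genes had a MED30 percentile of 93.8 or above, which leaves little room for a higher one in MED17. Nothing is therefore read from the contrast with protein-coding genes, which had any MED30 percentile. The 10 other U1, U2 and U5 genes described below likewise had the higher percentile in MED30, with medians of 99.4 against 98.4 in MED17. The 2 antibodies are also 2 libraries, and their part in the difference cannot be told apart.

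Summit positions were not used to choose the genes beyond the 1 kb limit. The 9 MED30 summits lay 3 to 31 bp from a gene end, with a median of 18 bp, and 2 of them were inside the gene. The 10 MED17 summits lay 9 to 334 bp from an end, with a median of 41.5 bp, and 8 were within 100 bp. All 10 MED17 and all 9 MED30 peaks overlapped the gene. At 22198 protein-coding starts of the promoter table, 9145 had a MED30 peak within 1 kb, and the strongest summit lay a median of 153 bp from the start. It was within 31 bp at 15.3% of them. For MED17 the median over 10620 starts was 285 bp. The distances are not on equal terms. A small nuclear RNA gene offers 2 ends and a start only 1. The distances at the 10 genes are also from the peak nearest each gene, and those at starts from the strongest peak within 1 kb. At RNU4-1 the strongest MED30 peak within 1 kb, the one beside RNU4-2, had its summit 1178 bp away.

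The 2 Mediator summits also lay close to each other. They were 7 to 386 bp apart at the 9 genes, with a median of 25 bp, and RNU7-1 was the widest. Over all 9308 overlapping MED17 and MED30 peaks the median distance was 211 bp. Mediator summits were nearer to the small nuclear RNA gene than to an end of a protein-coding gene in 10 of 10 cases for MED17 and 9 of 9 for MED30. The 1 kb limit all but fixed this at RNU4ATAC, RNU5A-1, RNU5B-1 and RNU6ATAC. There the nearest protein-coding end was 4759 bp or more from the MED17 summit, so only genes closer to such an end could have differed. Measured to the nearest protein-coding start, the MED17 count was 9 of 10, since the summit at RNU7-1 was 190 bp from the C12orf57 start and 334 bp from RNU7-1.

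MYC summits lay elsewhere. The 5 parental MYC summits were 277 to 883 bp from the gene, with a median of 700 bp, and none of the 5 peaks overlapped it. The counted MYC peak nearest the 1 kb limit had its edge 619 bp from RNU7-1, and the nearest parental MYC peak left out was the one 5.10 kb from RNU11. Their folds ran from 3.46 to 5.48, and 4 of 5 were below the median of the list. The MYC summit was 660 bp from the MED17 summit at RNU12, 225 bp at RNU4ATAC, 720 bp at RNU6ATAC, 430 bp at RNU4-2 and 423 bp at RNU7-1. From the MED30 summit it was 673, 257, 454 and 809 bp at RNU12, RNU4ATAC, RNU4-2 and RNU7-1. These distances exceed the medians over all overlapping peaks, 209 bp for MED17 (8880 pairs) and 144 bp for MED30 (8225 pairs). The peaks overlapped in all 9 of these pairs because the Mediator peaks were wide, with median widths of 1150 bp for MED17 and 1068 bp for MED30 against 355 bp for MYC. Over the whole lists the median widths were 756 bp for MED17 and 647 bp for MED30. The distances compared here are therefore not matched for peak width.

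The absence of MYC peaks at the 10 genes in the hairpin line, with or without doxycycline, was read against the depth of those lists. Of 8015 parental MYC peaks with a fold between 3.46 and 5.48, the range at these genes, 1162 (14.5%, 95% exact binomial interval 13.7 to 15.3) overlapped a peak in uninduced cells. In induced cells 599 (7.47%, interval 6.91 to 8.07) did. Among the 4062 such peaks at protein-coding ends the shares were lower, 8.94% and 3.91%. The intervals cover counting error only. A single gene could still be listed: RNU5F-1, outside the set, had a MYC fold of 4.99 in parental cells and 6.90 in uninduced cells. Most parental MYC peaks of this strength were thus missing from both lists, and depth, cell line and q limit differ together and cannot be told apart. The lists do not show whether MYC changed at the 10 genes.

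**Figure D3:**
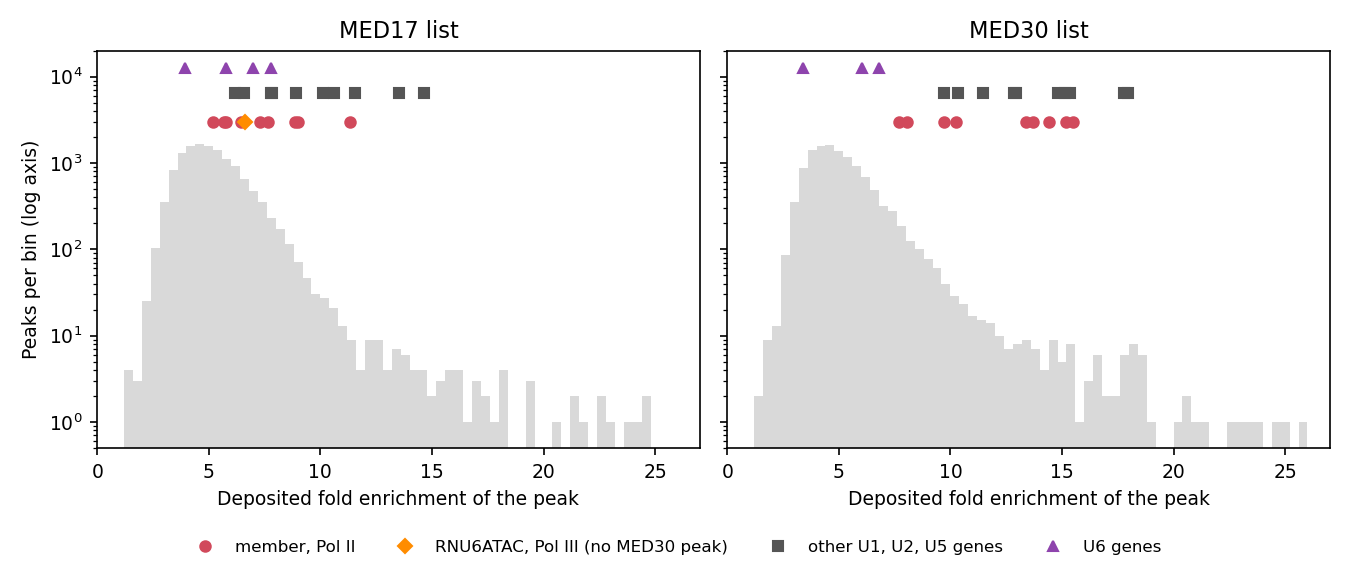
Deposited fold enrichment of all MED17 peaks (left) and MED30 peaks (right) as grey bars, with the number of peaks per bin of 0.4 on a log axis. Symbols above the bars mark the peak at each small nuclear RNA gene and their height carries no value. Unnamed genes and U1 variants are not drawn. In the MED30 list the drawn genes of RNA polymerase II (circles and squares) start at a fold of 7.68, above the highest U6 gene at 6.79.

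The other named small nuclear RNA genes give the same measurements in genes outside the set, grouped here after their values were seen by the polymerase that is known to make them. The 10 other U1, U2 and U5 genes, RNU2-63P included, all had both Mediator peaks, with MED30 folds of 9.72 to 18.0 (median 13.9) and MED17 folds of 6.18 to 14.6 (median 9.52). All 10 had a MED30 peak in the upper 10% of its list, with the summit 0 to 33 bp from the gene. RNU1-4 had the highest folds, 14.6 for MED17 and 18.0 for MED30. Among the U5 genes, RNU5D-1 (MED30 fold 10.3), RNU5E-1 (9.72) and RNU5F-1 (15.4) stood beside RNU5A-1 and RNU5B-1 in the set. Of 17 U1 variant genes, 13 had both peaks, with MED30 folds of 9.07 to 20.1 and summits within 50 bp. Reads from the near-identical U1, U2 and U1 variant copies can be misplaced between copies, so their single values are uncertain.

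The 5 U6 genes, made by RNA polymerase III as RNU6ATAC is, were lower in MED30. RNU6-7 and RNU6-8 had no MED30 peak, and the folds at RNU6-1, RNU6-2 and RNU6-9 were 6.79, 6.02 and 3.41. None was in the upper 10% of the list. The 3 MED30 summits were 87 bp from RNU6-1, 15 bp from RNU6-2 and 382 bp from RNU6-9. MED17 peaks were near 4 of the 5, with folds of 3.95 to 7.80 and summits 116 to 711 bp from the gene. RNU6ATAC, with a MED17 fold of 6.62, a summit 163 bp away and no MED30 peak, lay within the range of these U6 genes. The 3 MED30 folds at U6 genes did not overlap those at RNU11 and the 8 others of the set with a MED30 peak, nor those at the 10 other named genes of RNA polymerase II. The separation did not hold for the 79 unnamed small nuclear RNA genes, whose polymerase the table does not give. MED30 was near 16 of these, at folds of 3.35 to 18.6, and 5 of the 16 were at or below the highest U6 gene. Of the 16 genes, 14 were on chromosome 17, as were 4 of the 5. Most of the 14, and all 4 of the low ones there, lay at chr17:43239921-43368087, close to the U2 gene RNU2-1 (chr17:43233790-43233977). Whether these are U2 copies, with reads that can be misplaced between them, was not tested.

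Other genes of RNA polymerase III, in a list that also holds vault RNA genes and BCYRN1, were mixed. The promoter type of each listed gene was not checked. Of 13 such genes, MED17 was near 8 and MED30 near 8, and 2 had a MED30 peak in the upper 10% of the list. These were RPPH1, the RNA of RNase P, whose promoter region is shared with the protein-coding gene PARP2, with a MED30 fold of 9.62, and RN7SK, an RNA that restrains elongation factor P-TEFb, with 7.62. RMRP had the highest MED17 fold, 6.63, and a MED30 fold of 3.92. The MED30 folds of RPPH1 and RN7SK were above the highest MED30 fold at a U6 gene. RN7SK was just below RNU4-1, the lowest of the 9 genes with MED30.

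**Figure D4:**
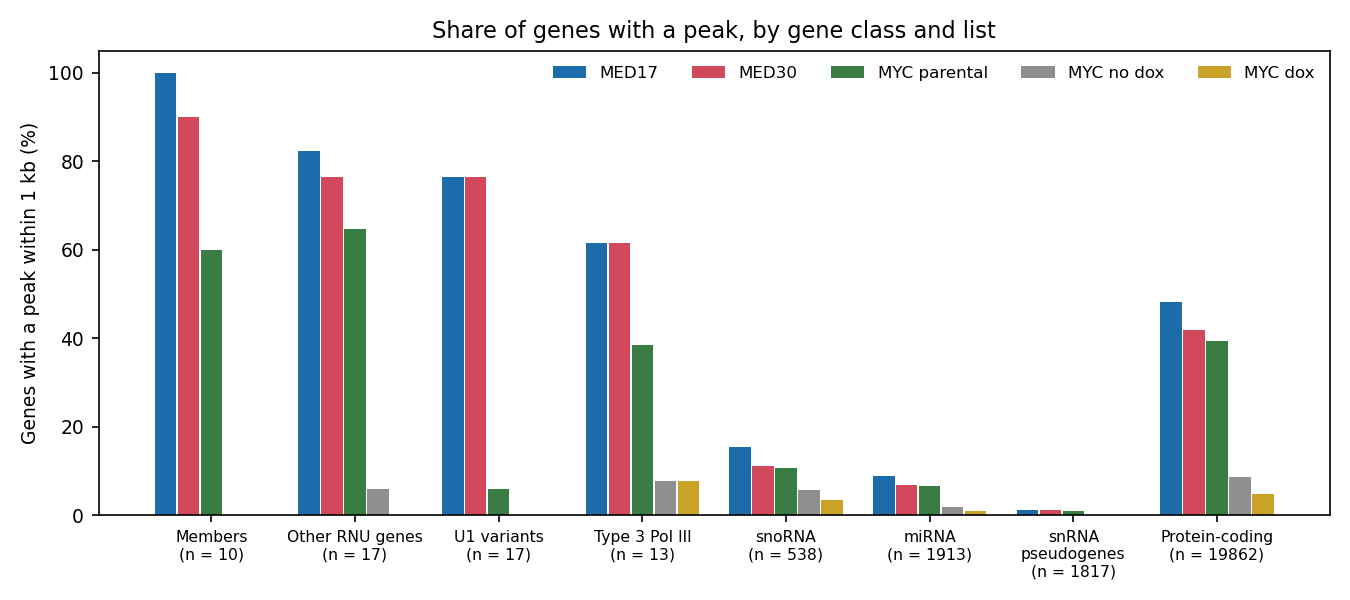
Percentage of genes with a peak within 1 kb of either end, by gene class (horizontal axis, with the number of genes) and peak list (bar colour). The first class was chosen by its peaks, so its height is a description. The class labelled type 3 Pol III is a list of 13 genes that also holds vault RNA genes and BCYRN1. Named small nuclear RNA genes and U1 variants stand near the first class in the Mediator lists, and snRNA pseudogenes are near 0.

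Pooled, the other small nuclear RNA genes more often lacked a Mediator peak than had one, as did the other small RNA classes. Over all 142 other small nuclear RNA genes, 45 (31.7%) had MED17 and 44 had MED30 nearby. Among them the 79 unnamed genes had 16 each and the 28 SNAR genes 1 each. The named RNU genes were the reverse, with MED17 near 14 of 17 and MED30 near 13, and the U1 variants had 13 of 17 for each. Of 1817 pseudogenes named after small nuclear RNAs, 22 (1.21%) had MED17 and 24 (1.32%) had MED30 nearby. Of 538 small nucleolar RNA genes, the class SNORD118 is annotated in, 83 (15.4%) had MED17 and 60 (11.2%) had MED30 nearby. A MED30 peak in the upper 10% was near 36 of them (6.69%), against 2.12% of all genes. For MED17 the share went the other way, with 4 (0.743%) against 2.2% of all genes. Of 1913 microRNA genes, the counts were 172 (8.99%) for MED17 and 130 (6.8%) for MED30.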

How the data were processed

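The authors deposited 1 narrowPeak list per library, and per the submitters' processing notes used Trim Galore, Bowtie2, MACS2 and deepTools on hg38. Tool versions and the control are not stated in the sources. Each deposited peak carries a score, a ratio (fold enrichment at the summit), −log10 p and q values, and a summit offset. The highest q in the deposited lists was 0.0489 to 0.0499 for the 3 parental lists and 0.0993 and 0.0979 for the other 2, so the lists used different limits.

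Peaks were assigned to genes within 1 kb of either end, with positions from RefSeq (GRCh38.p14, 58957 of 59792 genes). That table gives the 10 genes no strand, so distances are to the nearest gene end, where the planned measure was the start. Summit pileup was recovered from the deposited fold and −log10 p, tested on simulated data. None of the 10 genes was in the RefSeq promoter table, which supplied the neighbours' sequences. All 10 genes were named, with their nearest protein-coding genes and up to 3 genes of highest fold per other list. The genes and lists were chosen with earlier results of these data known. Python 3.11.15, pandas 2.3.3, numpy 2.4.6, scipy 1.17.1 and matplotlib 3.10.9 were used.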

Additional observations from a re-analysis of the deposited data

How the results depend on the processing

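Of 98 alternative values, 84 stayed within the range set for no change, 14 moved and 0 reversed. With a window of 250 bp, 500 bp or only the upper 50% of each list by fold, the number of the 10 genes with a parental MYC peak fell from 6 to 1, 3 and 1, and the number with Mediator and no MYC rose from 4 to 9, 7 and 9. The median MYC percentile over the 6 genes, 45.5 with the shared peak counted for both U4 genes (43.2 over the 5 distinct peaks), became 14.9 at 250 bp, 47.8 at 500 bp, 47.8 at a q of 1e-05, 72.5 in the upper 50% and 42.5 when only peaks at protein-coding ends were ranked. Ranked by −log10 q, the median percentile of MED17 moved from 88.7 to 94.5 and that of MED30 from 99.3 to 98.9, and ranked at protein-coding ends MED30 became 99.9. No paired analysis was possible because each group holds 1 library. Whether the lists' differing depth, fixation and q limits bear on the counts was not tested.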

Other observations

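Peaks near genes whose proteins act on small nuclear RNAs are given here as counts, beside the shares over all protein-coding genes, which were 48.2% (MED17), 42% (MED30) and 39.3% (parental MYC). No list was tested against that background. Of 12 genes for SNAPc and other promoter factors, MED17 was near 11, MED30 near 9 and parental MYC near 9. GTF2B, a general transcription factor, had the highest MED30 fold of that list (8.02), and SNAPC4, the largest SNAPc subunit, the highest MED17 fold (7.09). SNAPC2 had neither Mediator peak. Of 15 Integrator genes, whose products cleave the 3′ end of small nuclear RNA, MED17 was near 14, MED30 near 13 and parental MYC near 13, with INTS5 highest in MED17 (7.99), INTS14 in MED30 (7.43) and INTS1 in MYC (7.67). All 11 genes for proteins of the minor spliceosome had a MED17 peak, and 10 had a MED30 peak, with TXNL4B the highest at 8.24. Of 16 Sm and LSm genes, which encode the protein rings around small nuclear RNAs, the counts were 15, 13 and 14. SNRPE had the highest MYC fold of these (9.12) and SNRPB the highest MED30 fold (9.25). In the same order, the counts were 7, 7 and 7 of 7 genes for the little elongation complex and its partners, 10, 10 and 9 of 10 for 3′ trimming and capping, and 4, 5 and 4 of 5 for proteins of 7SK and U6 RNA. They were 11, 9 and 11 of 13 for the SMN complex, 15, 12 and 12 of 16 for the tri-snRNP and 9, 8 and 7 of 9 for U7 and histone mRNA processing.

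MYC peaks of high fold occurred at several of these protein-coding genes. GEMIN8, a member of the SMN complex that loads the Sm ring, had a parental MYC fold of 10.6, and NCBP2, a cap-binding protein, had 9.97. In the hairpin line GEMIN8 had MYC peaks without doxycycline (6.79) and with it (8.60). The highest parental MYC fold near the 10 RNA genes was 5.48, at RNU12. GEMIN8 and NCBP2 were the highest in MYC of their lists. Other genes of those lists had parental MYC folds within the range at the 10 genes, such as GEMIN7 (3.88) and USB1 (3.94). No difference in MYC strength between the protein-coding lists and the 10 genes was tested.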
